A study of Mus musculus with 6 samples.

Results

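The genes described here are 10 immediate early genes outside the AP-1 family, Egr1, Egr2, Egr3, Nr4a1, Ier2, Ier3, Btg2, Zfp36, Ccn1 and Dusp1, taken by name from the 23808 genes of an mRNA-seq table of mouse heart. All 10 were found by symbol, and 8 of them had a mean of at least 1 FPKM (fragments per kilobase of gene, scaled to each library's fragment total) over the libraries, as 11456 genes did. Hearts came from wild-type female mice given a high-fat diet (HFD, 3 libraries) or normal chow (NC, 3 libraries) from 4 to 12 weeks of age, and both diets shared the genotype, sex, tissue and age. The labels name neither the composition of the diets nor the part of the heart, and nothing in them shows that each library is a different mouse, so a p-value here speaks of the spread among these libraries, part of which may be technical.

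Immediate early genes are switched on within minutes of a stimulus, with no need for new protein synthesis, by factors already present in the cell. Serum response factor with its ETS-family partners binds the CArG box, and CREB binds the cAMP response element (CRE). Most of the transcripts are short-lived, so that their level follows recent signalling through kinases, calcium or stretch. In the heart this class of genes is known to respond to pressure load, adrenergic stimulation and ischaemia.

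The control elements of this class are shown first, because these genes are named for their shared way of being switched on. RefSeq promoter windows of build GRCm38.p6 were matched by symbol for 7 of the 10 genes. Egr1, Egr3 and Ier2 had no entry. The 250 bases before the annotated start were searched on both strands. The 4 windows below hold a CArG box or a CRE core and no base of an annotated exon of their gene, and of the 2 such windows of Egr2 the one with both motifs is shown. Each is written in the direction of its gene, with the CArG box, the full CRE TGACGTCA and its core TGACG (or CGTCA on the other strand) in capitals.
Egr2 (chr10:67537619-67537868, plus strand): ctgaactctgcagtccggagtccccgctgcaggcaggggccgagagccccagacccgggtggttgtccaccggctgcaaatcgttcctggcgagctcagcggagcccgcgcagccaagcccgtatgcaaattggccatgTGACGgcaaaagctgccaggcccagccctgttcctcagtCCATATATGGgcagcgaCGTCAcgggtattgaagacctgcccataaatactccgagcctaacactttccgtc
Btg2 (chr1:134079156-134079405, minus strand): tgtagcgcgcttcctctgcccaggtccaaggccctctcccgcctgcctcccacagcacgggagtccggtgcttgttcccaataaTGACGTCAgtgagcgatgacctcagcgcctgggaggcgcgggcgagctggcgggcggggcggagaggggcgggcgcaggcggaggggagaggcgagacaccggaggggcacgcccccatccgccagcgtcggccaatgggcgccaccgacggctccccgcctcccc
Ccn1 (chr3:145649986-145650235, minus strand): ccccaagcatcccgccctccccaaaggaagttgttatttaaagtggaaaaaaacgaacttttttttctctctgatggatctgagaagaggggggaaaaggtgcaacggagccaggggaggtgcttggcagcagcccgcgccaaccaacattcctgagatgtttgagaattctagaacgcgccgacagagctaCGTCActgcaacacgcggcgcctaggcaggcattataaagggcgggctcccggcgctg
Nr4a1 (chr15:101266596-101266845, plus strand): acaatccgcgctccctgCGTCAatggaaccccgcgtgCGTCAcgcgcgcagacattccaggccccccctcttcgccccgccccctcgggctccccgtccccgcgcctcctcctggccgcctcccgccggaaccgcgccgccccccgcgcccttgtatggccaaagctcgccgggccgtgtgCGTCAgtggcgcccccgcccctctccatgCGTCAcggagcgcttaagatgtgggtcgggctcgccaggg

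In Egr2, which has 5 windows for its alternative starts, the one above held a CArG box 72 to 63 bases before the start, with a CRE core on either side at 111 to 107 and 55 to 51 bases. Btg2 held a full CRE at 166 to 159 bases. Ccn1 held a single CRE core at 58 to 54 bases, and Nr4a1 held 4, the nearest at 40 to 36 bases. For Zfp36 and Dusp1, whose windows overlap annotated exons, only the 30 bases around the match are given, with the CArG box of Zfp36 and the full CRE of Dusp1 in capitals.
Zfp36 (chr7:28379267-28379296, minus strand): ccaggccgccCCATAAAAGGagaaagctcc
Dusp1 (chr17:26508597-26508626, minus strand): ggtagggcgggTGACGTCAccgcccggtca

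Counting every window of a gene, 2 of the 7 genes held a CArG box, against 1.62% of the 27025 genes in the promoter table and 1.51% of the 8730 of them that were tested here. A full CRE stood in 2 of the 7, against 1.77% of all genes and 2.97% of tested ones, and a CRE core, which every full CRE contains on both strands, in 5 of the 7, against 19.8% and 31.3%. The site bound by the EGR proteins themselves, GCGNGGGCG, stood in 3 of the 7 (Btg2, Nr4a1 and Zfp36), against 5.33% of all and 10.7% of tested genes, and the ETS site CCGGAA in 3 of the 7 (Egr2, Nr4a1 and Zfp36), against 13.6% and 25.7%. No window held the NR4A site AAAGGTCA, which 1.55% of all and 1.09% of tested genes held. Ier3 held none of these motifs in its window. These are matches of letters in short windows, and elements farther away were not searched.

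All 10 are protein-coding genes in the GENCODE annotation of mm10, the build named in the submitters' processing notes. Their median span was 4557 bases, with 1 to 8 exons in the longest transcript. The span ran from 1240 bases in Ier3 to 20527 in Nr4a1, which has 8 exons, and 56539 in Dusp1, whose longest transcript has 3 exons. The 10784 tested protein-coding genes with an annotation had a median span of 23601 bases and a median of 8 exons. Ier2, with a single exon, lies on chromosome 8 from 84661331 to 84662852. Egr1 lies on chromosome 18 from 34859823 to 34864984. Exons of Zfp36 overlap those of Gm44710 on the opposite strand, and exons of a long transcript of Dusp1 overlap those of Ergic1 on the opposite strand. Whether strand was used in counting is not stated in the labels, so reads of overlapping partners may be mixed. Gm44710 averaged 0.299 FPKM on HFD and 0.361 FPKM on NC, and Ergic1 7.25 FPKM on HFD and 9.46 FPKM on NC.

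No gene of the table passed the test between the diets, and so none of these did. With limma on log2(FPKM + 1) and Benjamini-Hochberg adjustment over all tested genes, 0.00% of the 11456 genes had an adjusted p under 0.05, and 3.62% (415 genes) had an unadjusted p under 0.05. Within that limit, the mean level was lower on HFD in 9 of the 10 immediate early genes, and the exception was Ier3. Egr1 and Ier2 had the largest differences among the 8 tested genes. HFD 1 was the lowest of the 6 libraries in 9 of the 10 genes, and NC 3 was the highest in 7. These counts include Egr2 and Egr3, which lay under the filter. Over all tested genes 53.1% had a negative log2 fold change, HFD 1 was lowest in 33.1% and NC 3 was highest in 19.5%.

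**Figure D1:**
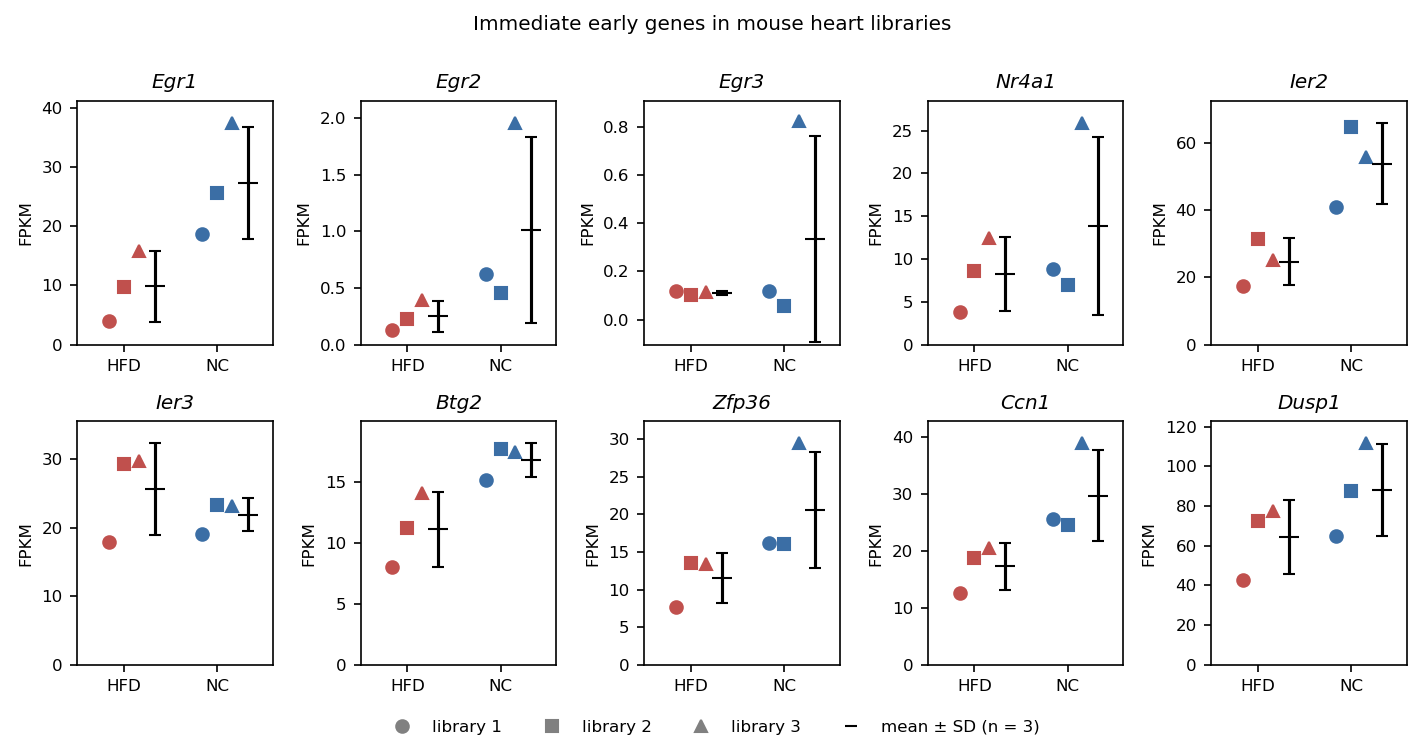
FPKM of each of the 10 immediate early genes, with a panel per gene, HFD libraries in red left of NC libraries in blue, marker shapes for library 1, 2 and 3, and the mean ± SD of each diet (n = 3) in black; each panel has its own linear axis. The HFD points lie below all NC points for Egr1, Egr2, Ier2, Btg2, Zfp36 and Ccn1, and overlap them for Egr3, Nr4a1, Ier3 and Dusp1.

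The EGR proteins are zinc-finger transcription factors that bind GC-rich promoter sites. The level of Egr1 was 3.94, 9.78 and 15.8 FPKM in libraries 1, 2 and 3 of HFD, against 18.6, 25.6 and 37.4 FPKM in libraries 1, 2 and 3 of NC. Every HFD value lay below every NC value, and the range on HFD was 4.02-fold from lowest to highest library, against 2.0-fold on NC. The means were 9.85 ± 5.95 FPKM on HFD and 27.2 ± 9.47 FPKM on NC (SD, n = 3 each), which is a log2 fold change of −1.50 (SE 0.39, limma adjusted p = 0.881, unadjusted p = 0.00233). Only 17 of the 11456 tested genes had a log2 fold change as low or lower, Egr1 among them.

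The relatives Egr2 and Egr3 were low in these hearts. Egr2 was at 0.128, 0.225 and 0.393 FPKM in the HFD libraries and at 0.624, 0.454 and 1.95 FPKM in the NC libraries. The diets did not overlap, but all values except that of NC 3 were under 1 FPKM, and the gene lay under the filter of the test. Egr3 was at 0.118, 0.0998 and 0.113 FPKM on HFD and at 0.117, 0.0562 and 0.826 FPKM on NC. Only NC 3 stood above the others, so the lower HFD mean of Egr3, 0.11 ± 0.0093 FPKM against 0.333 ± 0.428 FPKM on NC (SD, n = 3 each), rests on that single library. Fitted with no filter on low values over 22234 genes, Egr2 had a log2 fold change of −0.62 (SE 0.27, limma adjusted p = 0.984) and Egr3 one of −0.22 (SE 0.20, limma adjusted p = 0.984). With a filter at a mean of 0.3 FPKM Egr2 entered the test with an unadjusted p of 0.0365 (limma adjusted p = 1). In that fit 6 of 9 immediate early genes had an unadjusted p under 0.05, as did 512 of all 14139 genes.

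Nr4a1 encodes the orphan nuclear receptor Nur77, a transcription factor that links stimuli to metabolism and cell survival. It was at 3.78, 8.62 and 12.4 FPKM in the HFD libraries and at 8.82, 6.99 and 25.9 FPKM in the NC libraries. HFD 2 and HFD 3 lay among the NC values, and the difference in means, 8.27 ± 4.32 FPKM on HFD and 13.9 ± 10.4 FPKM on NC (SD, n = 3 each), was smaller than the spread on NC. The log2 fold change was −0.59 (SE 0.45, limma adjusted p = 0.9998). It was −0.06 without NC 3, and 0.36 (SE 0.29) without HFD 1 and NC 3.

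Ier2 encodes a small nuclear protein of the immediate early response, and had the smallest p of the 10 genes. It was at 17.5, 31.3 and 25.3 FPKM in the HFD libraries, against 40.8, 64.6 and 55.9 FPKM in the NC libraries. The highest HFD library stayed below the lowest NC library, and NC 2 rather than NC 3 was highest. The means were 24.7 ± 6.90 FPKM on HFD and 53.8 ± 12.0 FPKM on NC (SD, n = 3 each), so that HFD stood at 0.459 of the NC mean. The log2 fold change was −1.10 (SE 0.26, limma adjusted p = 0.624, unadjusted p = 0.0010), and Ier2 ranked 18 of all tested genes by p.

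Ier3, a stress-inducible regulator of cell survival, shares the naming but not the protein family of Ier2. It was at 17.9, 29.2 and 29.6 FPKM in the HFD libraries and at 19.1, 23.4 and 23.1 FPKM in the NC libraries. HFD 1 held the lowest value of all, as for most of the other genes, but HFD 2 and HFD 3 held the highest. The mean was 25.6 ± 6.68 FPKM on HFD and 21.8 ± 2.40 FPKM on NC (SD, n = 3 each), with a log2 fold change of 0.19 (SE 0.24, limma adjusted p = 0.9998).

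Btg2 and Zfp36 act on messenger RNA decay and growth arrest. Btg2 belongs to the antiproliferative BTG/TOB family and recruits the CCR4-NOT deadenylase. Its level was 7.98, 11.2 and 14.1 FPKM in the HFD libraries and 15.2, 17.7 and 17.4 FPKM in the NC libraries. The diets were separated by the small gap between HFD 3 and NC 1, and NC libraries were close to each other (log2 fold change −0.58, SE 0.24, limma adjusted p = 0.9998, unadjusted p = 0.029). Zfp36 encodes tristetraprolin, which binds AU-rich elements and hastens the decay of many cytokine and immediate early messages. It was at 7.71, 13.6 and 13.5 FPKM in the HFD libraries and at 16.2, 16.1 and 29.4 FPKM in the NC libraries. No values overlapped, although NC 1 and NC 2 lay much nearer to HFD 2 and HFD 3 than to NC 3 (log2 fold change −0.76, SE 0.29, limma adjusted p = 0.9998, unadjusted p = 0.0213).

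Ccn1 encodes a secreted matricellular protein that binds integrins, and is a known target of serum response factor and of YAP. It was at 12.7, 18.8 and 20.5 FPKM in the HFD libraries and at 25.7, 24.6 and 38.9 FPKM in the NC libraries. The groups did not overlap, and NC 3 stood above the other 2 NC libraries. Means were 17.3 ± 4.12 FPKM on HFD and 29.7 ± 7.95 FPKM on NC (SD, n = 3 each), which is a log2 fold change of −0.74 (SE 0.25, limma adjusted p = 0.9998, unadjusted p = 0.0123).

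Dusp1, a nuclear phosphatase that switches off MAP kinases and so limits the signals that induce the class, was the most abundant of the 10 genes. It was at 42.8, 72.7 and 77.3 FPKM in the HFD libraries and at 64.8, 87.8 and 112 FPKM in the NC libraries. HFD 2 and HFD 3 lay above NC 1, so the diets overlapped. The means of 64.3 ± 18.7 FPKM on HFD and 88.0 ± 23.4 FPKM on NC (SD, n = 3 each) gave a log2 fold change of −0.46 (SE 0.27, limma adjusted p = 0.9998). Without HFD 1 and NC 3 the log2 fold change was −0.01.

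The order of levels differed between the diets, on the FPKM scale, which is per length. On HFD the order was Dusp1, Ier3, Ier2, Ccn1, Zfp36, Btg2, Egr1, Nr4a1, Egr2 and Egr3. On NC it was Dusp1, Ier2, Ccn1, Egr1, Ier3, Zfp36, Btg2, Nr4a1, Egr2 and Egr3. Egr1 stood at place 7 on HFD and place 4 on NC, and Ier3 at place 2 on HFD and place 5 on NC. Neighbours in the order whose means differed by less than the larger of their SDs were, on HFD, Ier3 and Ier2 and the run from Zfp36 to Nr4a1. On NC they were the run from Ccn1 to Nr4a1, and Egr2 and Egr3.

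The diets did not overlap, with HFD below, in 5 of the 8 tested immediate early genes, Egr1, Ier2, Btg2, Zfp36 and Ccn1, and in Egr2 below the filter. Over all tested genes 4.88% were so separated. The same 5 genes had an unadjusted p under 0.05, where 2.30% of all tested genes were lower on HFD at that level. Of the 8, 7 had a negative log2 fold change, as did 53.1% of all tested genes, and the median was −0.67, against −0.02 over all tested genes. Exact two-sided permutation tests of the FPKM values gave p = 0.1, the smallest that 3 against 3 libraries allow, for the 6 separated genes. They gave 0.3 for Dusp1, 0.4 for Ier3, 0.6 for Nr4a1 and 0.8 for Egr3.

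The count of 5 genes rested partly on single libraries. Without HFD 1, and likewise without NC 3, 2 of the 8 genes, Egr1 and Ier2, had an unadjusted p under 0.05. Among all genes 421 of 11547 lay under that p without HFD 1, and 343 of 11378 without NC 3. Without both libraries, a choice made after the values were seen, Egr1 and Ier2 again had an unadjusted p under 0.05, with log2 fold changes of −0.76 (SE 0.31) and −0.85 (SE 0.29). HFD 1 was the lowest of the 6 libraries in all 8 genes, and NC 3 the highest in 5. Leaving both out thus raises the HFD means of the 8, and lowers the NC means of those 5, by construction. With both left out, 6 of the 8 genes were lower on HFD. The median log2 fold change of the 8 was then −0.29, against 0.07 over all genes tested in that fit. Of those genes 618 of 11502 had an unadjusted p under 0.05. Leaving out 1 library moved the log2 fold change of Egr1 between −1.90 (without HFD 3) and −1.01 (without HFD 1), and that of Ier2 between −1.29 (without HFD 2) and −0.89 (without HFD 1). With the mean of the structural RNAs or of the clock genes as a covariate, both also chosen after the values were seen, Egr1 passed the test (limma adjusted p = 0.00923 and 0.00108). Its log2 fold change was −2.0 with the structural RNA mean and −2.45 with the clock mean, and that of Nr4a1 was −1.19 and −1.63. All 5 structural RNAs and 13 of the 15 tested clock genes were themselves higher on HFD. Each covariate thus partly follows the diet, and these fits do not isolate its effect. In both fits 7 of the 8 genes had an unadjusted p under 0.05, and the median log2 fold change of the 8 was −1.03 and −1.25. The table as a whole moved too. In these fits 903 and 970 of the 11456 tested genes lay under that p, against 415 in the main fit. The median log2 fold change of all tested genes was −0.10 and −0.14.

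**Figure D2:**
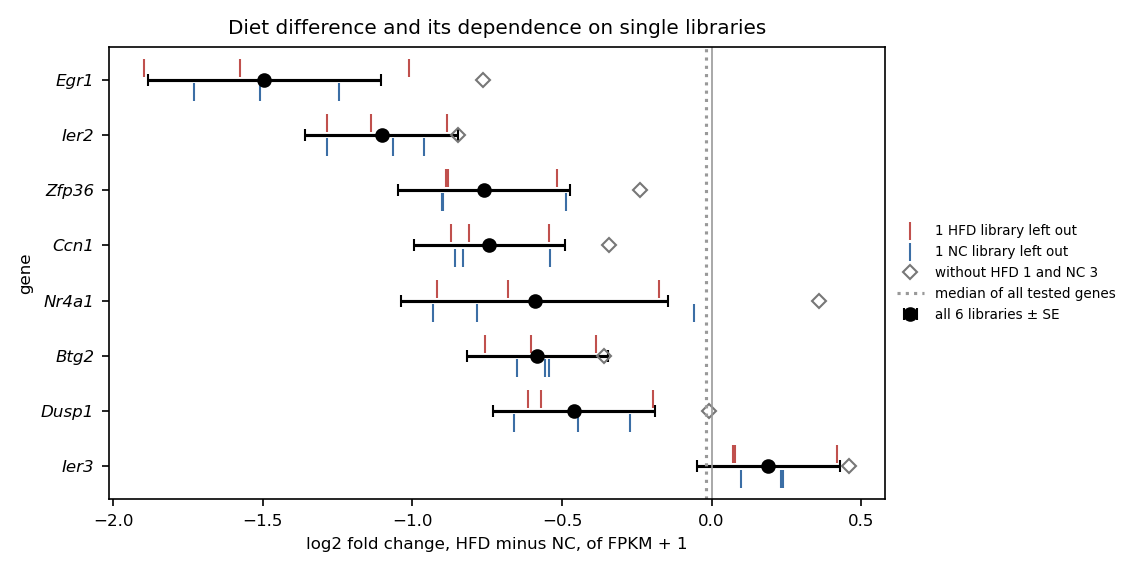
Log2 fold change of log2(FPKM + 1), HFD minus NC, for the 8 tested genes (black point with SE), with the values after leaving out 1 HFD library (red ticks) or 1 NC library (blue ticks) and without both HFD 1 and NC 3 (open diamonds); the dotted line is the median of all tested genes. Egr1 and Ier2 stay below −0.7 in all of these fits, Nr4a1 crosses 0, and Ier3 stays above 0.

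The 8 tested genes shared a low HFD 1 but differed in the order of the other libraries. Taking each gene's deviation from its own mean on the log2(FPKM + 1) scale, the average deviation was −0.91 in HFD 1, −0.15 in HFD 2, 0.02 in HFD 3, 0.05 in NC 1, 0.26 in NC 2 and 0.74 in NC 3. HFD 3 and NC 1 were thus nearly level. HFD 1 was the lowest library in 8 of the 8 tested genes, against 33.1% of all tested genes, and NC 3 was the highest in 5 of the 8, against 19.5%. The deviation in HFD 1 ran from −1.71 in Egr1 to −0.36 in Ier3, and in NC 3 from 1.36 in Nr4a1 to −0.01 in Ier3.

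**Figure D3:**
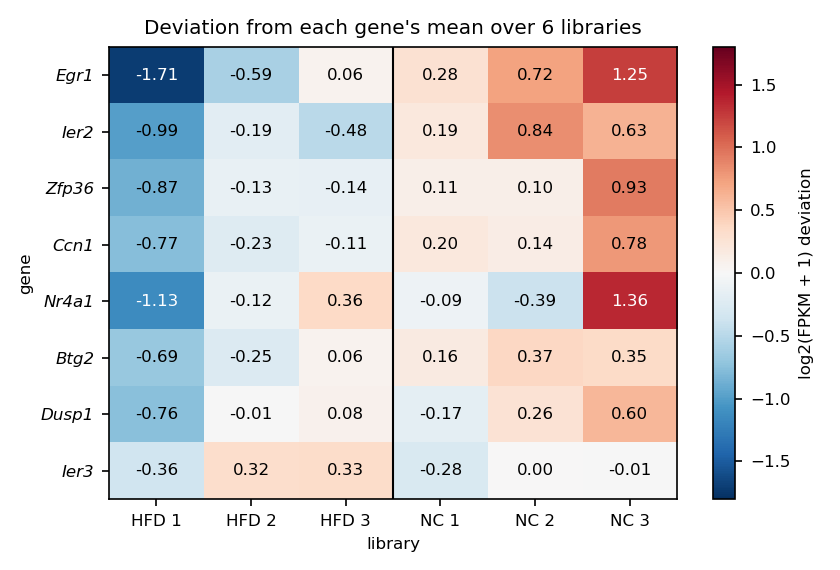
Deviation of log2(FPKM + 1) from each gene's own mean over the 6 libraries, with genes in rows ordered by diet difference and libraries in columns, HFD left of the line and NC right of it; blue is below and red above the gene's mean. HFD 1 is below the mean in every row, and Ier3 is the row whose HFD 2 and HFD 3 cells are its highest.

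The genes whose deviations were nearest to that average profile, by the root mean square difference over the 6 libraries, were led by Tsc22d4 (0.0854 log2 units) and Jund (0.105). Pcyox1l, Rsph9, Faap20, Gstp-ps, Rtkn and Fbxo44 followed, up to 0.144. Tsc22d4, a leucine-zipper protein, was at 37.6, 64.0 and 62.5 FPKM in the HFD libraries and at 65.2, 75.2 and 108 FPKM in the NC libraries. Among the immediate early genes themselves Ccn1 (0.116), Zfp36 (0.125) and Dusp1 (0.137) were as close. These genes make up the average, so their closeness to it is partly built in. Btg2 (0.199) and Ier2 (0.323) were less close. Egr1 (0.477), Nr4a1 (0.406) and Ier3 (0.473) were farther away. Egr1 kept the order of the average profile with wider swings, while in Nr4a1 NC 2 was the second lowest library and in Ier3 HFD 2 and HFD 3 were the highest. The HFD 1 library differs in another way, since 5 mitochondrial or mitochondrion-like genes over 1000 FPKM in every other library are listed at 0 there and its summed FPKM was 576334, against 687877 to 739406 in the others. With those genes taken out and the libraries rescaled to one sum, 5 of the 8 genes had an unadjusted p under 0.05. In that fit 445 of all 11448 genes did so. The log2 fold change was −1.47 for Egr1 and −1.08 for Ier2.

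Related genes were read from the same fit. Of the AP-1 subunits, several of which are induced by the same signals, 5 of 6 tested were lower on HFD. Of these 4 had an unadjusted p under 0.05, and the median log2 fold change of the 6 was −1.04. Over all tested genes 53.1% were lower on HFD, and 2.3% were lower at that p. Fos was at 4.60, 10.3 and 19.0 FPKM in the HFD libraries and at 32.0, 44.8 and 69.6 FPKM in the NC libraries, so that HFD 1 was lowest and NC 3 highest here as well. For Jun, a usual partner of Fos, the difference was −0.36 (log2, SE 0.28).

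Other rapidly induced genes did not share this direction as a list. Of 34 tested, 18 were lower and 16 higher on HFD, with a median log2 fold change of −0.07, and 1 in each direction had an unadjusted p under 0.05. Thbs1, which encodes the matricellular protein thrombospondin, was at 0.469, 0.385 and 2.15 FPKM on HFD and at 3.13, 1.51 and 7.05 FPKM on NC, with HFD 3 above NC 2. Csrnp1, a nuclear protein induced by several growth signals, was higher on HFD in all libraries, at 6.81, 5.62 and 6.66 FPKM, against 3.99, 1.85 and 3.99 FPKM on NC (log2 fold change 0.83, SE 0.26, limma adjusted p = 0.9998).

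Family relatives of the 10 genes, such as other BTG, CCN, ZFP36 and DUSP members, were lower on HFD in 9 of 18 tested, with a median log2 fold change of −0.01. Among them only the phosphatase gene Dusp2 had an unadjusted p under 0.05, at 0.403, 0.233 and 0.607 FPKM on HFD and 2.66, 0.653 and 2.73 FPKM on NC (log2 fold change −1.01). The messages of the relays that carry signals to the CArG box and CRE, from RAS, RAF and MAP kinases to serum response factor and CREB, were lower in 14 and higher in 17 of 31 tested. Their median log2 fold change was 0.02, and 0 had an unadjusted p under 0.05. Nab1 and Nab2, corepressors that bind EGR proteins, had log2 fold changes of 0.19 (SE 0.23) and −0.15 (SE 0.26). These are message levels, and the activity of kinases is not measured by them.

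**Figure D4:**
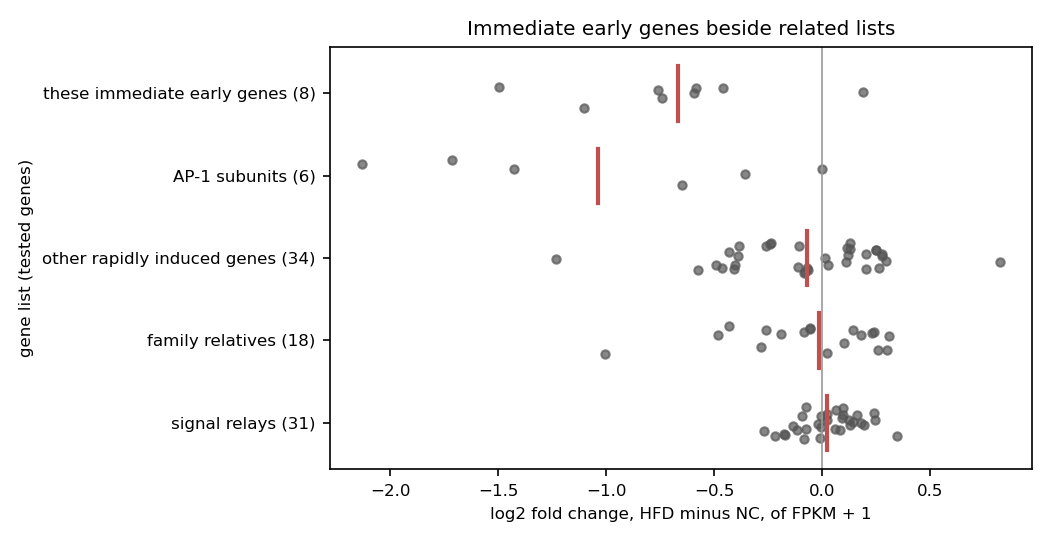
Log2 fold change of log2(FPKM + 1), HFD minus NC, of every tested gene in 5 lists (grey points, spread vertically for legibility), with the list's median as a red line and the number of tested genes in parentheses. The medians are −0.67 for the immediate early genes described here and −1.04 for AP-1, and lie between −0.07 and 0.02 for the other 3 lists.

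Clock and glucocorticoid-responsive genes were mostly higher on HFD, though none passed the adjusted test. Of 15 tested clock genes 13 were higher on HFD, 5 with an unadjusted p under 0.05, where 1.32% of all tested genes were higher at that level. The activator genes Arntl and Npas2, under the filter of the test, were lower on HFD without overlap. Arntl was at 0.112, 0.350 and 0.161 FPKM on HFD and at 2.65, 0.907 and 0.879 FPKM on NC, and Npas2 at 0.243, 0.137 and 0.0796 FPKM on HFD and at 0.508, 0.269 and 0.620 FPKM on NC. These 2 genes were named after their values were seen. The repressor gene Per2 was at 4.77, 12.1 and 10.7 FPKM on HFD and at 2.04, 3.68 and 4.07 FPKM on NC. All 11 glucocorticoid-responsive genes were higher on HFD, 3 of them with an unadjusted p under 0.05 (Zbtb16, Fkbp5 and Sgk1). Dusp1 and Zfp36, which are not on that list, are also known to respond to glucocorticoids. Per1 is counted in both the clock and the glucocorticoid list, and its difference was 0.43 (log2, SE 0.33). The hour at which hearts were taken is not in the labels, and the part of the glucocorticoid-responsive genes in the differences above was not tested. With the mean of the clock genes as a covariate the log2 fold change of Egr1 was −2.45, as given above. That mean pools genes that were higher on HFD, such as Per2, with Arntl and Npas2, which were lower. It is therefore no measure of the hour, and the part of the hour in the differences was not tested.

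The hearts hold several cell types in which immediate early genes can be active. Cardiomyocyte markers identified the tissue, with Tnnt2 between 2909 and 3757 FPKM on HFD and between 4045 and 4235 FPKM on NC. The summed level of 10 macrophage markers was 158 to 205 FPKM on HFD and 214 to 320 FPKM on NC, with all 10 lower on HFD and 5 at an unadjusted p under 0.05. Over all tested genes 2.3% were lower and 1.32% higher on HFD at that level. Of 10 fibroblast markers 9 were lower (summed 741 to 1330 FPKM on HFD and 714 to 1473 FPKM on NC), 3 of them at an unadjusted p under 0.05. Among these the collagen gene Col3a1, named after its values were seen, did not overlap between the diets, at 29.4, 18.7 and 38.4 FPKM on HFD and 80.5, 54.1 and 92.0 FPKM on NC (log2 fold change −1.38, unadjusted p = 0.000369). Likewise 9 of 10 smooth muscle and pericyte markers were lower (414 to 579 FPKM on HFD and 529 to 586 FPKM on NC), 2 of them at an unadjusted p under 0.05. Des alone held 208 to 319 FPKM of that sum on HFD and 245 to 289 FPKM on NC. Of 10 endothelial markers 9 were higher (1057 to 2000 FPKM on HFD and 870 to 1350 FPKM on NC), 1 of them, Fabp4, at that level. Fabp4 alone held 611 to 1368 FPKM of that sum on HFD and 423 to 878 FPKM on NC. Of 10 cardiomyocyte markers 8 were lower (31587 to 35024 FPKM on HFD and 35222 to 45414 FPKM on NC), 1 of them, Tnni3, at an unadjusted p under 0.05. In such bulk samples fewer cells of a type and less RNA per cell cannot be told apart. The part of these cell types in the differences of the immediate early genes was not tested.

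Some markers varied widely among the libraries of a diet. Atrial markers summed to 429 to 7038 FPKM on HFD and 345 to 13776 FPKM on NC, with NC 3 highest. Structural RNAs summed to 184 FPKM in HFD 1, 830 in HFD 2 and 1705 in HFD 3, against 229 in NC 1, 180 in NC 2 and 900 in NC 3. Red blood cell markers summed to 1241 to 13371 FPKM on HFD and 2025 to 8294 FPKM on NC, and adipocyte markers to 1.04 to 53.6 FPKM on HFD and 4.44 to 69.3 FPKM on NC, with HFD 1 lowest. Neutrophil markers summed to 1.88 to 5.03 FPKM on HFD and 1.93 to 3.83 FPKM on NC, and of its 6 genes only S100a9 was tested. None of the markers was listed at 0 in every library.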

How the data were processed

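mRNA-seq of 6 mouse heart libraries (3 HFD, 3 NC) was read from a single table of FPKM per gene and library, deposited by the authors. Neither the program behind these values nor depth or strandedness is stated in the labels or the file header. Build mm10, HISAT2 2.2.1, HTSeq 0.13.5 and DESeq2 1.18.1 stand in the submitters' processing notes, as do R 3.4.1, Trimmomatic 0.38 and FastQC 0.11.9, without a role. Symbols were matched by identifier for 23718 of 23808 genes. Among genes under 0.3 FPKM, at most 5.32% of ratios to NC 1 lay within 0.02 (log2) of the commonest, so read counts were not recovered, depth is unknown and no counting interval is given.

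The 11456 genes whose mean reached 1 FPKM were tested on log2(FPKM + 1), a scale that understates changes of low genes, in R 4.3.3 with limma 3.58.1 (linear model, eBayes with trend, two-sided, Benjamini-Hochberg, threshold 0.05, no covariate). The fit was tested on simulated data. Single genes were also compared with exact permutation tests (scipy 1.17.1). Fold changes are HFD minus NC. The rule for named genes took the 10 immediate early genes, up to 4 genes with the smallest p of a list, and the 8 genes nearest in profile, leaving out predicted models. The members, lists and tests were chosen with earlier results of these data known. Alternatives were 2 pseudocounts, 2 filters, 3 scalings, other eBayes settings, library weights, a replicate block, each library left out and 5 settings added after seeing the data. Python 3.11.15 with matplotlib 3.10.9 drew the figures.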

Additional observations from a re-analysis of the deposited data

How the results depend on the processing

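Under 2 pseudocounts, 2 filters, 3 scalings, 3 other limma settings and each library left out, no immediate early gene passed an adjusted p of 0.05, and each of the 8 tested genes kept the sign of its log2 fold change. The number of genes passing over the whole table was 0 in those of these settings that used all 6 libraries and at an adjusted threshold of 0.1, and 0 to 1 when 1 library was left out (1 without NC 2, 0 without any other). It was 415 at an unadjusted p under 0.05. With the replicate number as a block (replicate block), 73 genes passed, among them Egr1 (limma adjusted p = 1.28e-05) and Ier2 (0.00578), with log2 fold changes as before. In that fit the SEs of the 8 genes were nearly equal, 0.257 to 0.270, against 0.236 to 0.447 in the main fit. Its p-values thus rest on a variance pooled over genes and do not measure each gene's own spread. Deviations of same-numbered libraries correlated at 0.193, 0.0864 and 0.275 over genes. Differently numbered libraries correlated between −0.361 (HFD 1 with NC 3) and 0.251 (HFD 1 with NC 2). These correlations do not settle whether the numbers pair the libraries. Nothing in the labels says that they do, so the main fit used no block. Of the settings added after seeing the data, 0 genes passed without the genes listed at 0 in HFD 1, 7 genes passed without HFD 1 and NC 3, 1 with the atrial mean as a covariate, and 8 each with the structural RNA mean and with the mean of the clock genes as a covariate. Egr1 was among the 8 both times (limma adjusted p = 0.00923 and 0.00108), although both covariates partly follow the diet. The log2 fold change of Nr4a1 turned to 0.36 without HFD 1 and NC 3, and that of Ier3 to −0.16 with the clock covariate, and the cause was not tested. Depth is unknown, and the low values of Egr2 and Egr3 limit their comparison.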
